A study of Homo sapiens with 21 samples.

Results

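The genes described here are 10 cytosolic and mitochondrial heat shock chaperones, chosen by symbol as chaperones under the control of the heat shock factor HSF1. They were the HSP70 proteins HSPA8, HSPA1A and HSPA1B with their HSP110 partner HSPH1, the HSP90 pair HSP90AA1 and HSP90AB1, the J-domain cochaperones DNAJA1 and DNAJB1, and the mitochondrial chaperonin HSPD1 with its lid HSPE1. All 10 were listed among the 16553 genes of the deposited count table, and all 10 passed the filter on low counts, as did 15969 genes in all.

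RNA was sequenced from 21 samples of wild-type AU565 cells, an established human breast cancer line with an amplified ERBB2 gene, in 7 groups of 3. Trastuzumab is an antibody against the ERBB2 receptor. Primed and treated aggregates received 20 µg/ml trastuzumab for 24 h as a monolayer, grew for 96 h as aggregates (liquid overlay with 5% matrigel) and then received 50 µg/ml for 24 h. Treated aggregates had only the later exposure, after the same 96 h of growth, and primed aggregates only the earlier one. Untreated aggregates grew for 96 h without antibody. Primed monolayers received 20 µg/ml for 24 h followed by 96 h more in culture. Acutely exposed monolayers received 20 µg/ml for 24 h and were then harvested, and untreated monolayers received none. All groups were kept in RPMI with 10% serum. The treated aggregates, primed or not, were 24 h older at harvest than the other aggregates. The labels do not say that the 3 samples of a group were separate cultures, so p-values measure the spread between these samples, which may be technical.

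HSP70 proteins bind exposed stretches of unfolded proteins and release them in cycles driven by ATP. J-domain proteins deliver clients and start ATP hydrolysis, HSP110 proteins exchange the nucleotide, and HSP90 takes over late folding of kinases and receptors, ERBB2 among them. In mitochondria, HSPD1 forms a folding chamber that HSPE1 closes. HSF1 binds heat shock elements, inverted repeats of the unit GAA, in the promoters of many of these genes and raises their transcription when unfolded proteins accumulate.

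The promoters are shown first, with the letters of heat shock elements searched for in them. The search covered RefSeq windows on GRCh38.p14 from 250 bases before to 50 after an annotated start, 16 windows for the 10 genes. An element of 3 alternating units, GAANNTTCNNGAA or TTCNNGAANNTTC, lay in 0.49% of all 35116 promoter windows. It lay in 5 of the 16 chaperone windows, from 5 of the 10 genes. The bases before the start are printed 5′ to 3′ on the gene's strand, with these matches in capitals. They are HSPA8 (chr11:123062137-123062386, minus strand), HSP90AA1 (chr14:102087045-102087294, minus), HSP90AB1 (chr6:44247693-44247942, plus), HSPD1 (chr2:197499841-197500090, minus) and, without a match, HSPA1A (chr6:31815293-31815542, plus) and HSPH1 (chr13:31162389-31162638, minus).
HSPA8: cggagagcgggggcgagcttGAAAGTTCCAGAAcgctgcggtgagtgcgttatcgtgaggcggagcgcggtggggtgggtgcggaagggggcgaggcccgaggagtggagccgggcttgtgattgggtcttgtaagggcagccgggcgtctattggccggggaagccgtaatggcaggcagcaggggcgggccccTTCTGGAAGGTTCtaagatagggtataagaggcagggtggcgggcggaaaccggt
HSP90AA1: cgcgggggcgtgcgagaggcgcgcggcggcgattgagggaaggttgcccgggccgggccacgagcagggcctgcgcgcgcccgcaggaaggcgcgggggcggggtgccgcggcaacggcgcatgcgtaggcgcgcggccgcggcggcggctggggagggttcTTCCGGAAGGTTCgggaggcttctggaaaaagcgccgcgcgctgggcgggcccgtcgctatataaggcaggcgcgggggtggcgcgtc
HSP90AB1: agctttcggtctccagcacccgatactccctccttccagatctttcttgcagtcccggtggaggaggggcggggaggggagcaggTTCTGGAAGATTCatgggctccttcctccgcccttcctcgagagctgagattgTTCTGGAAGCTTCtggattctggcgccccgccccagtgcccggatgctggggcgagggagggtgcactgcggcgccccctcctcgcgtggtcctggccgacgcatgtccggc
HSPD1: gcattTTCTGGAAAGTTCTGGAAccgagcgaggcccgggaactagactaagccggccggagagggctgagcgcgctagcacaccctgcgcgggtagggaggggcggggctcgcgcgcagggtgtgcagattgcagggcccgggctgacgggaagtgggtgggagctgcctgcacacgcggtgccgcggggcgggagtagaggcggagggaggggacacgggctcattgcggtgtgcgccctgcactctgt
HSPA1A: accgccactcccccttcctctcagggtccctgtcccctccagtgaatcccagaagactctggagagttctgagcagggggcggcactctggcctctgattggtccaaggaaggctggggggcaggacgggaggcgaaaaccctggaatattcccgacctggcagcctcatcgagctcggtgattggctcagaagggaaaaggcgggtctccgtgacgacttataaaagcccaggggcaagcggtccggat
HSPH1: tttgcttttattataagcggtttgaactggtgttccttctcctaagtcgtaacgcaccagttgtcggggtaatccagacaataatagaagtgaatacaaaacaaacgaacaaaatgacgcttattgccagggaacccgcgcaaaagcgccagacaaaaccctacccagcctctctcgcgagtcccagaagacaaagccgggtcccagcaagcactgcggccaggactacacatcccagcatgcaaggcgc

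Positions count from the start of the window that held the match. HSPA8 held elements that began 230 and 55 bases before that start, HSP90AB1 at 165 and 112 bases, HSP90AA1 at 88 bases, and HSPD1 a pair that overlapped, at 245 and 240 bases. HSP90AB1 had 3 windows, HSP90AA1 2 and HSPD1 2, and their other windows held no such element. The starts with a match, at bases 44247943, 102087044 and 197499840, lay inside the gene spans given below. In DNAJA1 the element, GAACTTTCCAGAA, began at base 4 after the start. A shorter element of 2 units, GAANNTTC, overlaps the longer one. It lay in 6.77% of all windows and in 9 of the 16 chaperone windows, from 8 of the 10 genes, HSPA1A, HSPA1B and DNAJB1 among the additional ones. The other pairing of 2 units, TTCNNGAA, also overlaps the longer element. It lay in 7.74% of all windows and in 5 of the 16, from the same 5 genes as the longer one. The letters TATAAA or TTTATA lay in 11.5% of all windows and in 2 of the 16, from HSPA1A and HSPA1B. The letters CCAAT or ATTGG lay in 34.6% of all windows and in 7 of the 16, from 5 of the 10 genes. HSPH1 and HSPE1 held no match to any of these letters in the windows searched. A match is a description of the letters and not a measured binding site.

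**Figure D1:**
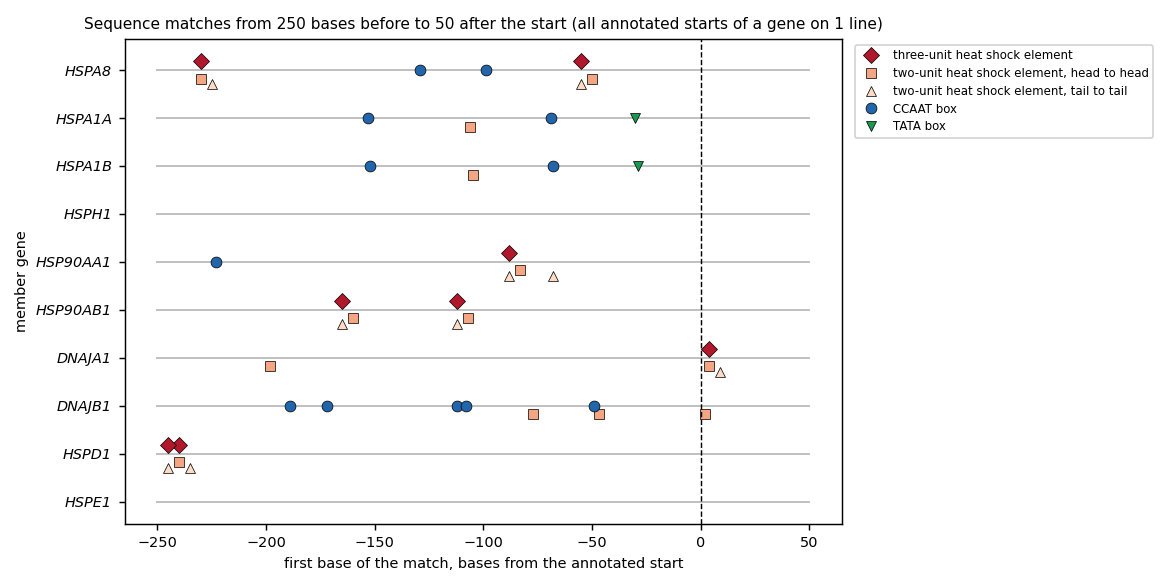
Positions of the letters searched, in bases from the annotated start (x axis), for each chaperone gene (rows). Symbols mark the first base of each match to the 5 patterns named in the legend, all annotated starts of a gene are drawn on 1 line, and HSPH1 and HSPE1 have none.

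Libraries held 15005070 to 26921113 counts. Levels are CPM (counts scaled to the library size) after TMM scaling, so they are relative to the rest of the library, and fewer cells of a kind cannot be told apart from less RNA per cell. The 8 markers of ERBB2-amplified breast epithelium summed to 12818 to 20391 CPM, although CDH1, the epithelial cadherin, stood at only 0.0449 to 3.05 CPM, in 1 library with a single count. The 28 markers of other tissues that were present summed to 55.7 to 305 CPM per library, and some of them divided the libraries into sets. Kidney markers summed to 8.80 to 28.7 CPM in primed and treated aggregates, treated aggregates and primed monolayers, against 1.13 to 3.00 CPM in the other 4 groups, whereas melanocyte markers summed to 1.64 to 4.20 against 16.2 to 107 CPM. The sets were not uniform: within the second, melanocyte markers were at 53.4 to 91.3 CPM in primed aggregates, 16.2 to 22.2 CPM in untreated aggregates, 34.3 to 91.3 CPM in acutely exposed monolayers and 48.3 to 107 CPM in untreated monolayers. Mesenchyme markers split the same way, at 5.04 to 11.1 against 22.1 to 47.8 CPM. Brain markers did not, with primed monolayers (21.6 to 23.4 CPM) within the range of the second set (14.7 to 25.0 CPM). They were at 34.0 to 50.1 CPM in treated aggregates, primed or not. Striated muscle markers overlapped between the sets. Comparisons of one set with the other are marked as such below, since there the set and the treatment cannot be told apart. MYH7, a striated muscle myosin, stood at 20.6 to 87.4 CPM in 6 libraries (untreated aggregates replicates 1 and 2, acutely exposed monolayers replicates 2 and 3, and untreated monolayers replicates 1 and 2) and at most at 0.110 CPM elsewhere. Results that a fit without these 6 libraries changes are given with that value, although it leaves 1 library in each of 3 groups, assumed to vary like the rest.

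The chaperones made up 0.616 ± 0.019% of counts in primed and treated aggregates, 0.568 ± 0.0059% in treated aggregates, 0.465 ± 0.027% in primed aggregates, 0.528 ± 0.033% in untreated aggregates, 0.716 ± 0.020% in primed monolayers, 0.823 ± 0.0096% in acutely exposed monolayers and 0.932 ± 0.0092% in untreated monolayers (SD, n = 3 each). The ranges of the 7 groups did not overlap, though the lowest treated and the highest untreated aggregate both rounded to 0.563%. Per kilobase of merged exons, the levels in untreated monolayers followed the order HSPA8 (869 CPM per kb), HSP90AA1 (813), HSP90AB1 (646), HSPD1 (217), DNAJA1 (100.3), DNAJB1 (87.7), HSPH1 (60.2), HSPE1 (30.9), HSPA1A (24.1) and HSPA1B (16.8). The constitutive HSP70 and both HSP90 genes thus held the highest levels per length, and the inducible pair HSPA1A and HSPA1B the lowest.

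**Figure D2:**
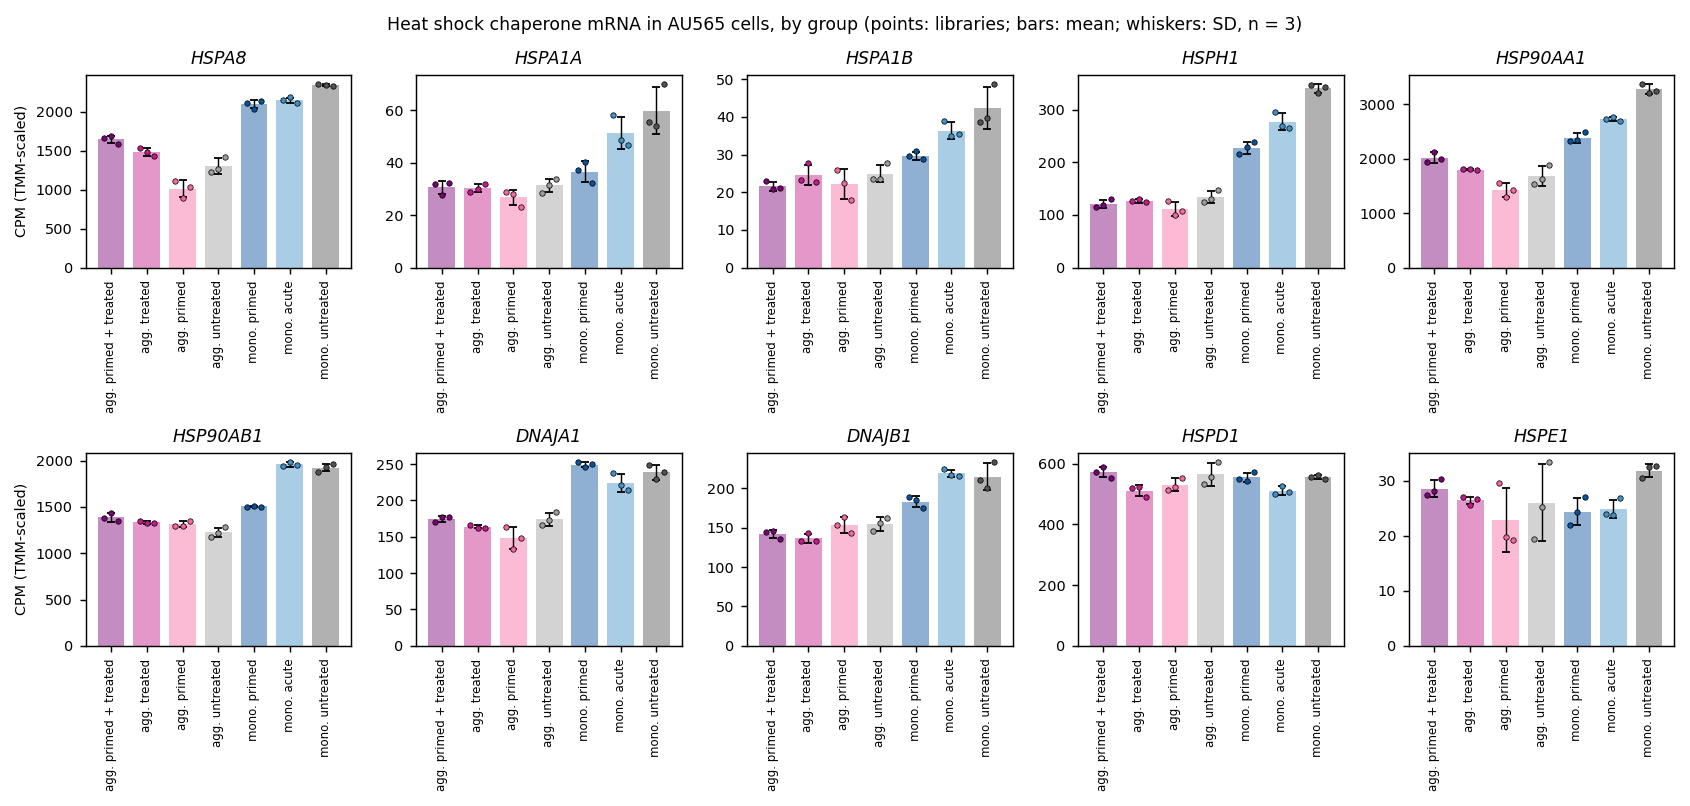
Level of each chaperone gene in TMM-scaled CPM (y axis, from 0), with points for libraries, bars for the group mean and whiskers for the SD (n = 3), from primed and treated aggregates at the left to untreated monolayers at the right. HSPH1 spans the widest range of group means, 3.06-fold, and HSPD1 the narrowest, 1.12-fold.

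The cytosolic chaperones were lower in untreated aggregates than in untreated monolayers. Of the 10 genes, 8 fell in untreated aggregates against untreated monolayers, and HSPD1 and HSPE1 did not pass the test (edgeR quasi-likelihood test, two-sided, Benjamini-Hochberg adjusted over all genes tested, called under 0.05). Of all tested genes 31.1% fell and 32.9% rose. The median log2 change, aggregates over monolayers, was −0.71 over the 10 genes and 0.01 over all tested genes. No call was lost when any 1 library was left out or without the libraries with MYH7. The aggregates had grown for 96 h, and the labels give no such time for untreated monolayers, so growth as aggregates and time in culture cannot be told apart. Markers of other tissues also differed. All 6 melanocyte markers were listed and none was at 0 throughout a group, and their sum was 16.2 to 22.2 CPM in untreated aggregates, against 48.3 to 107 CPM in untreated monolayers. The 5 brain markers listed summed to 14.7 to 17.0 CPM in untreated aggregates, against 20.5 to 25.0 CPM in untreated monolayers, with 1 of them at 0 in each group. Their part in the result was not tested.

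HSPH1, the HSP110 nucleotide exchange factor on chromosome 13 (chr13:31134973-31162388, minus strand), changed most. It stood at 124, 131 and 147 CPM in untreated aggregates, against 348, 332 and 344 CPM in untreated monolayers. The groups were far apart, and the log2 change was −1.35 ± 0.068 (SE, edgeR adjusted p = 2.8e-17), a level 0.392 times that of monolayers. HSPA8, the constitutive HSP70 (chr11:123057489-123062462, minus), stood at 1222, 1265 and 1420 CPM in untreated aggregates, against 2363, 2342 and 2329 CPM in untreated monolayers. It was lower in every aggregate library, with a log2 change of −0.85 ± 0.059 (edgeR adjusted p = 1.08e-14). The stress-inducible HSPA1A (chr6:31815543-31817942, plus) stood at 28.6, 31.6 and 33.8 CPM in untreated aggregates, against 55.7, 53.9 and 70.2 CPM in untreated monolayers. Its log2 change was −0.93 ± 0.11 (edgeR adjusted p = 3.18e-08). Its neighbour HSPA1B (chr6:31827738-31830254, plus) stood at 23.6, 23.6 and 27.6 CPM in untreated aggregates, against 38.6, 39.6 and 48.8 CPM in untreated monolayers, with a log2 change of −0.77 ± 0.10. The pair could not be separated well, because 71.3% of the 50-base stretches of HSPA1A transcripts also occur in another gene, as do 73.5% of those of HSPA1B. Their values are therefore uncertain as values of single genes. HSPA1B also shares 920 exon bases with AL671762.1, a gene model not in the table.

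Both cytosolic HSP90 genes fell. HSP90AA1, the inducible cytosolic form (chr14:102080742-102139749, minus), stood at 1530, 1624 and 1882 CPM in untreated aggregates, against 3376, 3201 and 3241 CPM in untreated monolayers. The log2 change was −0.96 ± 0.061 (edgeR adjusted p = 1.27e-15). HSP90AB1, the constitutive form (chr6:44246194-44253883, plus), stood at 1174, 1223 and 1278 CPM in untreated aggregates, against 1882, 1931 and 1959 CPM in untreated monolayers. Its log2 change was −0.65 ± 0.045 (edgeR adjusted p = 1.21e-14). All aggregate libraries were below all monolayer libraries for both genes. Stretches of 50 bases shared with other genes made up 11.3% of HSP90AA1, 16.6% of HSP90AB1, 8.23% of HSPA8, 13.2% of HSPD1 and 11.7% of HSPE1, and at most 2.02% of HSPH1, DNAJA1 or DNAJB1.

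Both J-domain cochaperones fell. DNAJA1 (chr9:33025273-33039907, plus), a partner of HSPA8, stood at 166, 173 and 184 CPM in untreated aggregates, against 249, 229 and 239 CPM in untreated monolayers, with a log2 change of −0.45 ± 0.057. DNAJB1 (chr19:14514769-14560391, minus), the HSP40 protein that works with HSP70 to resolve aggregated proteins, stood at 145, 156 and 163 CPM in untreated aggregates, against 210, 200 and 233 CPM in untreated monolayers. Its log2 change was −0.47 ± 0.058. Neither gene's groups overlapped.

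The mitochondrial pair did not pass. HSPD1 (chr2:197486584-197500274, minus) stood at 532, 557 and 605 CPM in untreated aggregates, against 556, 564 and 550 CPM in untreated monolayers, a log2 change of 0.02 ± 0.049 with overlapping groups (edgeR adjusted p = 0.738). HSPE1, which lies head to head with HSPD1 (chr2:197500379-197503449, plus), stood at 19.4, 25.2 and 33.4 CPM in untreated aggregates, against 30.4, 32.4 and 32.6 CPM in untreated monolayers. Its aggregate libraries were widely spread, and the log2 change was −0.29 ± 0.15 (edgeR adjusted p = 0.105). Without untreated aggregates replicate 3, the highest of them, HSPE1 passed at −0.51 (edgeR adjusted p = 0.00186). HSPE1 shares 169 exon bases with HSPD1 on the opposite strand and 192 bases with HSPE1-MOB4, which is not in the table, and whether counting used the strand is not given in the sources used here. Set beside the promoter letters as a description only, the log2 changes of the 5 genes with a 3-unit element were −0.85, −0.96, −0.65, −0.45 and 0.02, and those of the 5 without one in the windows searched were −0.93, −0.77, −1.35, −0.47 and −0.29, ranges that overlap. The split depends on the windows for the mitochondrial pair. The HSPD1 window with the element ended at base 197500090 of chromosome 2, before the HSPE1 window began at base 197500129.

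**Figure D3:**
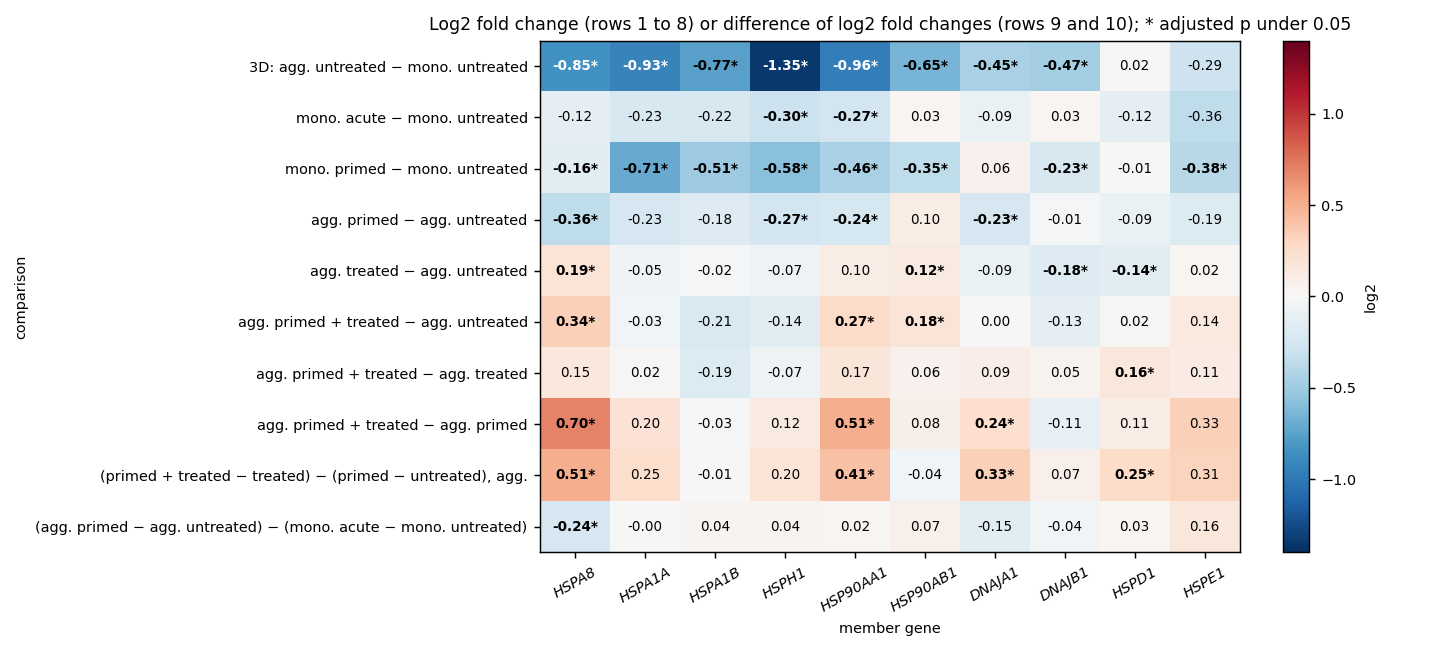
Log2 change of each chaperone gene (columns) in the 8 comparisons between groups and, in the lowest 2 rows, the differences between responses, as colours and printed values, with an asterisk where the edgeR adjusted p was under 0.05. Untreated aggregates against untreated monolayers give values down to −1.35, for HSPH1, and the exposures of aggregates give values between −0.36 and 0.70, both for HSPA8.

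In monolayers, 24 h of trastuzumab came with lower HSPH1 and HSP90AA1, and the other 8 genes did not pass. Over all tested genes, 8.91% fell and 11.3% rose, and the median log2 change was −0.17 over the 10 genes and −0.02 over all tested genes. HSPH1 stood at 296, 270 and 266 CPM in acutely exposed monolayers, each below the lowest untreated monolayer at 332 CPM, with a log2 change of −0.30 ± 0.066 (edgeR adjusted p = 0.00105). HSP90AA1 stood at 2720, 2758 and 2689 CPM in acutely exposed monolayers, also below every untreated one, with a log2 change of −0.27 ± 0.061 (edgeR adjusted p = 0.00149). HSP90AB1 stood at 1937, 1985 and 1957 CPM in acutely exposed monolayers and overlapped the untreated range, with a log2 change of 0.03 ± 0.045. Neither call held without the libraries with MYH7, at −0.22 for HSPH1 (edgeR adjusted p = 0.318) and −0.25 for HSP90AA1 (0.144). HSPA1A passed at −0.33 without acutely exposed monolayers replicate 1, and HSPE1 at −0.34 with only the groups compared in the fit.

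After exposure and 96 h more, 8 of the 10 genes were lower in primed monolayers than in untreated monolayers, and DNAJA1 and HSPD1 did not pass. Among the 15969 tested genes 31.6% fell and 33.7% rose, and the medians were −0.37 over the 10 genes and 0.01 over all tested genes. This comparison crosses the sets of libraries. The labels give no such 96 h for untreated monolayers, so past exposure and time in culture cannot be told apart. HSPA1A stood at 37.3, 40.4 and 32.3 CPM in primed monolayers, below the lowest untreated monolayer at 53.9 CPM, with a log2 change of −0.71 ± 0.11. HSPH1 stood at 216, 229 and 238 CPM in primed monolayers, with a log2 change of −0.58 ± 0.066 (edgeR adjusted p = 4.49e-09). HSP90AA1 stood at 2318, 2336 and 2488 CPM in primed monolayers (log2 change −0.46 ± 0.061). HSP90AB1, at 1502, 1514 and 1501 CPM in primed monolayers, was lower by a log2 change of −0.35 ± 0.045, and these libraries lay below every untreated and every acutely exposed monolayer. HSPA1B changed by −0.51, DNAJB1 by −0.23, HSPA8 by −0.16 and HSPE1 by −0.38 on the log2 scale. HSPE1 lost its call without any 1 of 5 of the 6 libraries compared, all but primed monolayers replicate 3 (−0.32 to −0.42, edgeR adjusted p = 0.0518 to 0.141). HSPA8 lost its call without primed monolayers replicate 2 (−0.14) or without the libraries with MYH7 (−0.15). DNAJA1 stood at 252, 246 and 250 CPM in primed monolayers, its highest group mean, and overlapped untreated monolayers.

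Of the 10 genes, 4 were lower in primed aggregates than in untreated aggregates, and the other 6 did not pass. This comparison and those that follow for aggregates share libraries, the 3 untreated aggregates among them. Of all tested genes 9.66% fell and 11.5% rose. The medians were −0.21 over the 10 genes and 0.00 over all tested genes. Markers of other tissues moved as well. The 6 melanocyte markers, none at 0 throughout a group, summed to 53.4 to 91.3 CPM in primed aggregates, against 16.2 to 22.2 CPM in untreated aggregates, and the 5 brain markers listed summed to 17.2 to 23.0 CPM in primed aggregates, against 14.7 to 17.0 CPM in untreated aggregates. Their part in the result was not tested. HSPA8 stood at 1113, 899 and 1034 CPM in primed aggregates, below all untreated aggregates (1222, 1265 and 1420 CPM), with a log2 change of −0.36 ± 0.058 (edgeR adjusted p = 2.5e-05). It was called in every fit that left out 1 library, from −0.43 to −0.28, and at −0.48 without the libraries with MYH7. DNAJA1 stood at 164, 133 and 149 CPM in primed aggregates (−0.23 ± 0.058), HSPH1 at 126, 101 and 108 CPM (−0.27 ± 0.069) and HSP90AA1 at 1546, 1291 and 1424 CPM (−0.24 ± 0.061). The ranges of HSPH1 and HSP90AA1 overlapped those of untreated aggregates. Without primed aggregates replicate 2, the lowest of its group for these genes, DNAJA1 (−0.16), HSPH1 (−0.20) and HSP90AA1 (−0.18) no longer passed and HSPA8 alone was called. Without untreated aggregates replicate 3, HSPH1 (−0.19) and HSP90AA1 (−0.15) no longer passed and HSP90AB1 did, at 0.13. In the main fit HSP90AB1 went the other way without passing, at 0.10 ± 0.045 (edgeR adjusted p = 0.119). It stood at 1298, 1289 and 1350 CPM in primed aggregates, above every untreated aggregate. DESeq2 called it higher, at 0.10 (DESeq2 adjusted p = 0.0347). Without primed aggregates replicate 1, HSPA1B (−0.30) and HSPE1 (−0.41) passed as well, and without the libraries with MYH7 HSPE1 passed at −0.55. HSPE1 stood at 29.5, 19.8 and 19.2 CPM in primed aggregates, replicate 1 well above the others.

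The later exposure alone came with small changes in both directions. In treated aggregates against untreated ones, HSPA8 and HSP90AB1 rose and DNAJB1 and HSPD1 fell, where of all tested genes 18.8% rose and 17.9% fell, and the medians were −0.04 over the 10 genes and 0.00 over all tested genes. This comparison crosses the sets of libraries and an age difference of 24 h. HSPA8 stood at 1539, 1489 and 1434 CPM in treated aggregates, just above the highest untreated aggregate at 1420 CPM, with a log2 change of 0.19 ± 0.058. HSP90AB1 stood at 1347, 1325 and 1323 CPM (0.12 ± 0.045), DNAJB1 at 133, 143 and 133 CPM (−0.18 ± 0.058) and HSPD1 at 520, 523 and 491 CPM (−0.14 ± 0.050) in treated aggregates. Each of these 4 calls was lost without at least 1 library. HSPA8 lost it without treated aggregates replicate 1 (0.17) or untreated aggregates replicate 1 (0.15), HSPD1 without treated aggregates replicate 3 (−0.11) or untreated aggregates replicate 3 (−0.09), DNAJB1 without treated aggregates replicate 1 or 3 or untreated aggregates replicate 3 (−0.14 to −0.16), and HSP90AB1 without any 1 library other than untreated aggregates replicate 3 (0.09 to 0.12). HSP90AA1 passed at 0.19 without untreated aggregates replicate 3. Without the libraries with MYH7, HSPA8 (0.07) and HSP90AB1 (0.06) did not pass.

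After both exposures, HSPA8, HSP90AA1 and HSP90AB1 rose in primed and treated aggregates against untreated aggregates, and the other 7 genes did not pass. Over all tested genes, 17.6% rose and 17.9% fell, and the medians were 0.01 over the 10 genes and 0.00 over all tested genes. HSPA8 stood at 1661, 1685 and 1594 CPM in primed and treated aggregates, above every other aggregate library, with a log2 change of 0.34 ± 0.058 (edgeR adjusted p = 2.25e-05). HSP90AA1 stood at 1937, 2126 and 1991 CPM in primed and treated aggregates, above the highest untreated aggregate at 1882 CPM, with a log2 change of 0.27 ± 0.061. HSP90AB1 stood at 1378, 1436 and 1345 CPM in primed and treated aggregates, with a log2 change of 0.18 ± 0.045. These calls held in each fit that left out 1 library, but none of the 3 passed without the libraries with MYH7, at 0.22 for HSPA8 (edgeR adjusted p = 0.0530), 0.10 for HSP90AA1 (0.366) and 0.12 for HSP90AB1 (0.187), where HSPH1 passed at −0.28. HSPH1 also passed without primed and treated aggregates replicate 3 or untreated aggregates replicate 1 (−0.20 each), DNAJB1 without untreated aggregates replicate 1 (−0.17) and HSPE1 without untreated aggregates replicate 3 (0.35). The comparison crosses the sets of libraries and the same age difference.

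Against primed aggregates, the same 3 libraries with both exposures had higher HSPA8, HSP90AA1 and DNAJA1, and the other 7 genes did not pass. Among the 15969 tested genes 14.9% rose and 14.8% fell, and the medians were 0.16 over the 10 genes and 0.00 over all tested genes. HSPA8 gave a log2 change of 0.70 ± 0.059 (edgeR adjusted p = 6.56e-11), from 1594 to 1685 CPM with both exposures against 899 to 1113 CPM with priming alone. HSP90AA1 gave 0.51 ± 0.061 (edgeR adjusted p = 9.02e-08) and DNAJA1, at 170, 177 and 177 CPM in primed and treated aggregates, gave 0.24 ± 0.058. No call was lost when any 1 library was left out. None of the libraries with MYH7 belonged to these groups, so the fit without them kept every library compared and is no check of these calls. HSPH1 (0.22) and HSPE1 (0.55) passed as well without primed aggregates replicate 1, and HSPE1 (0.33) without the libraries with MYH7. This comparison too crosses the sets and the age difference.

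Primed and treated aggregates against treated aggregates stay within one set of libraries and one age, and there HSPD1 alone rose, at 573, 589 and 554 CPM in primed and treated aggregates against 520, 523 and 491 CPM in treated aggregates. Of all tested genes 3.18% rose and 4.8% fell, and the medians were 0.08 over the 10 genes and 0.00 over all tested genes. The log2 change of HSPD1 was 0.16 ± 0.049 (edgeR adjusted p = 0.0362). It was lost in 5 of the 6 fits that left out 1 library, all but that without primed and treated aggregates replicate 3 (0.13 to 0.18, edgeR adjusted p = 0.0579 to 0.182). HSPA8 (0.15 ± 0.058) and HSP90AA1 (0.17 ± 0.061) were higher in every primed and treated library than in every treated one but did not pass, with edgeR adjusted p = 0.124 and 0.0913. With only the groups compared in the fit, both passed, at 0.14 and 0.16.

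Priming thus went with other values in aggregates that were later exposed than in those that were not, and the difference itself was tested. Both groups with the later exposure were 24 h older and lay in the other set of libraries. Later exposure, age and set therefore cannot be told apart in this test. The melanocyte markers given above for primed and untreated aggregates differed within this test too, at 3.37 to 4.20 CPM in primed and treated aggregates, 2.80 to 3.89 CPM in treated aggregates, 53.4 to 91.3 CPM in primed aggregates and 16.2 to 22.2 CPM in untreated aggregates, and their part in the result was not tested. The change on priming in treated aggregates exceeded that in untreated aggregates for HSPA8 (log2 difference 0.51 ± 0.082, edgeR adjusted p = 4.66e-05), HSP90AA1 (0.41 ± 0.086, adjusted p = 0.00123), DNAJA1 (0.33 ± 0.081, adjusted p = 0.0055) and HSPD1 (0.25 ± 0.070, adjusted p = 0.0136). Of all tested genes 5.05% had a higher and 7.42% a lower value in this test, and the medians were 0.25 over the 10 genes and 0.00 over all tested genes. HSPA8 had a change on priming of 0.15 with the later exposure against −0.36 without it, HSP90AA1 of 0.17 against −0.24, DNAJA1 of 0.09 against −0.23 and HSPD1 of 0.16 against −0.09. These 4 calls held in all 12 fits that left out 1 library and without the libraries with MYH7, where the differences were 0.63, 0.57, 0.40 and 0.35. HSPH1 (0.29) and HSPE1 (0.53) passed as well without primed aggregates replicate 1, and HSPE1 (0.67) without the libraries with MYH7. HSP90AB1 gave −0.04 ± 0.064 and DNAJB1 0.07 ± 0.082, neither of which passed.

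The change on priming in aggregates was also set against the change on acute exposure in monolayers. Primed aggregates were harvested 96 h after the exposure and acutely exposed monolayers at its end. Time since exposure and growth as aggregates therefore cannot be told apart here. HSPA8 alone passed, with a log2 difference of −0.24 ± 0.082 (edgeR adjusted p = 0.0486). Of all tested genes 6.85% had a higher and 8.25% a lower value, and the medians were 0.03 over the 10 genes and 0.01 over all tested genes. The call was lost in 10 of the 12 fits that left out 1 library (−0.16 to −0.26), all but those without primed or untreated aggregates replicate 1, with the groups compared fitted alone (edgeR adjusted p = 0.0726) and without the libraries with MYH7 (−0.37). DNAJA1 passed at −0.22 without primed aggregates replicate 1.

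Order among the groups differed between members. Untreated monolayers held the highest group mean of HSPA8, HSPA1A, HSPA1B, HSPH1, HSP90AA1 and HSPE1, and acutely exposed monolayers that of HSP90AB1 and DNAJB1, where they overlapped untreated monolayers. All monolayer groups lay above all aggregate groups in mean for the cytosolic genes. HSPA8 was the gene whose aggregate groups separated fully, in the order primed and treated, treated, untreated and primed. HSPH1, with its 4 aggregate means between 112 and 134 CPM, had neighbours that overlapped throughout the aggregates. HSPD1 kept all group means between 511 and 572 CPM, and every neighbour in its order overlapped.

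**Figure D4:**
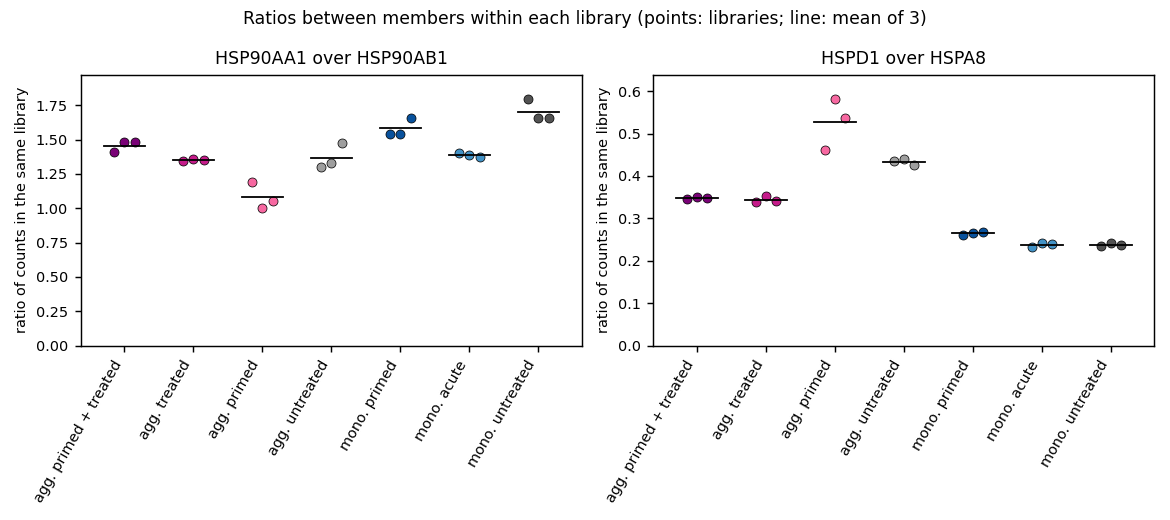
Ratios of counts between 2 pairs of chaperone genes (panels) in each library (points) with the group mean (lines), primed and treated aggregates at the left and untreated monolayers at the right. HSPD1 over HSPA8 is highest in primed aggregates, at 0.526, and lowest in untreated monolayers, at 0.237.

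Ratios within a library are given for the HSP90 pair and for the chaperonin against the constitutive HSP70. HSP90AA1 over HSP90AB1 averaged 1.46 in primed and treated aggregates, 1.35 in treated aggregates, 1.08 in primed aggregates, 1.37 in untreated aggregates, 1.58 in primed monolayers, 1.39 in acutely exposed monolayers and 1.70 in untreated monolayers. Primed aggregates, at most at 1.19, lay below every other library. HSPD1 over HSPA8 averaged 0.347 in primed and treated aggregates, 0.344 in treated aggregates, 0.526 in primed aggregates, 0.434 in untreated aggregates, 0.264 in primed monolayers, 0.238 in acutely exposed monolayers and 0.237 in untreated monolayers. These are ratios of counts, given as a description and not tested.

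Other chaperones of the network were taken from lists of 84 genes in 9 groups, of which 82 were tested. In untreated aggregates against untreated monolayers 24 rose (29.3%) and 34 fell (41.5%). Of all tested genes 32.9% rose and 31.1% fell, and the counts of single lists are to be read against those shares. Leaving out 1 library at a time gave 20 to 26 rises and 31 to 36 falls among the 82. Both counts were lower without the libraries with MYH7, a fit that leaves 1 library in each of these groups. The HSP90 cochaperones fell in 7 of 11 genes and rose in 2, with a median log2 change of −0.41. The cytosolic chaperonin TRiC with prefoldin, which folds actin and tubulin, fell in 7 of 14 genes and rose in 3, and its subunit TCP1 gave −1.26 ± 0.046. The J-domain gene DNAJB4 gave −1.59 ± 0.099. The endoplasmic reticulum chaperones went the other way, with 8 of 12 higher and 3 lower, and HSPA5, the HSP70 of that compartment, at 1.06 ± 0.060. Without the libraries with MYH7 2 of the 12 rose, and without untreated monolayers replicate 1 alone 5 did. The HSP90 cochaperones that fell numbered 4 without the libraries with MYH7. HSPA2, an HSP70 gene best known from testis, rose by 1.69 ± 0.33 on the log2 scale. HSF4, a relative of HSF1, rose by 1.84 ± 0.22, and HSF1 itself by 0.42 ± 0.066, at 135, 129 and 127 CPM in untreated aggregates against 94.4, 93.2 and 103 CPM in untreated monolayers. HSF1 did not pass without the libraries with MYH7 (0.29). It also rose in acutely exposed (0.21 ± 0.066) and primed monolayers (0.31 ± 0.066), neither of which passed without those libraries (0.12 and 0.22), and it did not pass in comparisons between aggregates. The acute rise was lost, too, without acutely exposed monolayers replicate 1 or 3 or untreated monolayers replicate 1 or 2 (0.18 to 0.20).

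On acute exposure of monolayers 5 of the 82 genes rose (6.1%) and 19 fell (23.2%), against 11.3% and 8.91% of all tested genes. The rises numbered 2 without acutely exposed monolayers replicate 3 or untreated monolayers replicate 2, and 3 without acutely exposed monolayers replicate 2 or untreated monolayers replicate 1. Without the libraries with MYH7, edgeR called 0 rises (2 at an unadjusted p under 0.05) and 3 falls. The small heat shock protein HSPB7 fell by 1.26 ± 0.065 on the log2 scale, and HSPB1, the main small heat shock protein of epithelia, gave 0.14 and did not pass. BAG3, a cofactor that links HSP70 to autophagy, rose by 0.28 ± 0.058, a call lost without the libraries with MYH7 (0.17). In primed monolayers 32 rose (39%) and 37 fell (45.1%) against untreated monolayers, where of all tested genes 33.7% rose and 31.6% fell. This contrast crosses the sets of libraries, and past exposure and time in culture cannot be told apart. HSPB7 fell by 2.14 on the log2 scale there, and HSPB1 rose by 0.99 ± 0.12. In primed against untreated aggregates 3 rose, all in the endoplasmic reticulum list (HSP90B1 by 0.27, HSPA5 and DNAJC3 by 0.21 each), and 20 fell, 5 of 11 HSP90 cochaperones and 5 of 11 mitochondrial chaperones and proteases among them. These are 3.66% and 24.4% of the 82, against 11.5% and 9.66% of all tested genes. The counts that fell dropped to 2 cochaperones without primed aggregates replicate 2, 3 without untreated aggregates replicate 3, 1 mitochondrial gene without primed aggregates replicate 1 and 2 to 4 mitochondrial genes without any other single library. With only the groups compared in the fit, edgeR called 10 of the 82 genes lower and 0 of the mitochondrial ones (6 at an unadjusted p under 0.05), and without untreated aggregates replicate 3 5 of the 82 rose and 11 fell. HSPA5 lost its call without primed aggregates replicate 2 (0.13), and both HSPA5 (0.24) and DNAJC3 (0.20) lost it without the libraries with MYH7.

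With the later exposure, more of the 82 genes fell than rose. In treated against untreated aggregates 5 rose (6.1%; 3 without treated aggregates replicate 2 or the libraries with MYH7) and 35 fell (42.7%), against 18.8% and 17.9% of all tested genes. Those that fell were 10 of the 11 other mitochondrial chaperones and proteases, with a list median of −0.24, 7 of 12 endoplasmic reticulum chaperones (4 without the libraries with MYH7), 6 of 14 TRiC and prefoldin genes, 5 of 11 HSP90 cochaperones (2 without treated aggregates replicate 2 or untreated aggregates replicate 3), 3 of 7 other HSP70 and HSP110 genes and 4 from the remaining lists. The 3 HSP70 and HSP110 genes became 1 without treated aggregates replicate 1, untreated aggregates replicate 2 or 3 or the libraries with MYH7. In primed and treated against untreated aggregates 7 rose (8.54%) and 35 fell (42.7%), against 17.6% and 17.9% of all tested genes, with 8 of 11 mitochondrial genes (5 without untreated aggregates replicate 3) and 11 of 12 endoplasmic reticulum chaperones among those that fell. The rises numbered 2 without untreated aggregates replicate 2 or the libraries with MYH7, 3 without untreated aggregates replicate 1 or primed and treated aggregates replicate 2, and 4 with only the groups compared. HSPB1 rose by 0.61 ± 0.12 in treated and by 0.59 ± 0.12 in primed and treated aggregates on the log2 scale. BAG3 rose by 0.21 ± 0.059 in treated aggregates (0.14 and not passed without treated aggregates replicate 2) and by 0.18 ± 0.058 in primed and treated aggregates, where it was lost without primed and treated aggregates replicate 1 (0.16), untreated aggregates replicate 2 (0.17) or the libraries with MYH7 (0.21). Both comparisons cross the sets of libraries and the age difference. Against primed aggregates, all 12 endoplasmic reticulum chaperones fell in primed and treated aggregates, HSPA5 by 0.84 on the log2 scale, and 12 fell in each alternative fit. Of the 82 genes, 8 rose (9.76%; 4 or 5 without primed and treated aggregates replicate 1 or 2 or primed aggregates replicate 2 or 3) and 25 fell (30.5%) there, against 14.9% and 14.8% of all tested genes and again across the sets, and HSPB1 rose by 0.85 ± 0.12. Against treated aggregates, 9 of 12 endoplasmic reticulum chaperones fell in primed and treated aggregates, of 11 that fell among the 82 genes (13.4%), and 2 rose (2.44%; 1 without primed and treated aggregates replicate 2 or treated aggregates replicate 2 or 3, and 5 with only the groups compared), against 4.8% and 3.18% of all tested genes. HSPA8, HSP90AA1 and DNAJA1 had a higher change on priming with the later exposure than without it. By contrast, 8 of the 12 endoplasmic reticulum chaperones had a lower one, HSPA5 at −0.55 and HSP90B1 at −0.47. Of the 82 genes, 8 had a higher change (9.76%) and 9 a lower one (11%), against 5.05% and 7.42% of all tested genes. Set and age differed along with the later exposure there. In the same test 4 of 14 TRiC and prefoldin genes and 2 of 11 HSP90 cochaperones had a higher one, CACYBP at 0.36. Those counts became 9 and 4 without the libraries with MYH7, 7 and 4 without untreated aggregates replicate 1 and 6 and 4 without primed aggregates replicate 1, while the cochaperone count became 1 without primed aggregates replicate 2 or 3. The change on priming in aggregates against that on acute exposure differed upwards in 8 (9.76%) and downwards in 5 (6.1%) of the 82 genes, against 6.85% and 8.25% of all tested genes. Without the libraries with MYH7 edgeR called 0 of them in either direction (7 upwards and 6 downwards at an unadjusted p under 0.05), and 4 or 5 upwards without untreated aggregates replicate 1, acutely exposed monolayers replicate 1 or 3 or untreated monolayers replicate 1 or 2, or with only the groups compared.

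**Figure D5:**
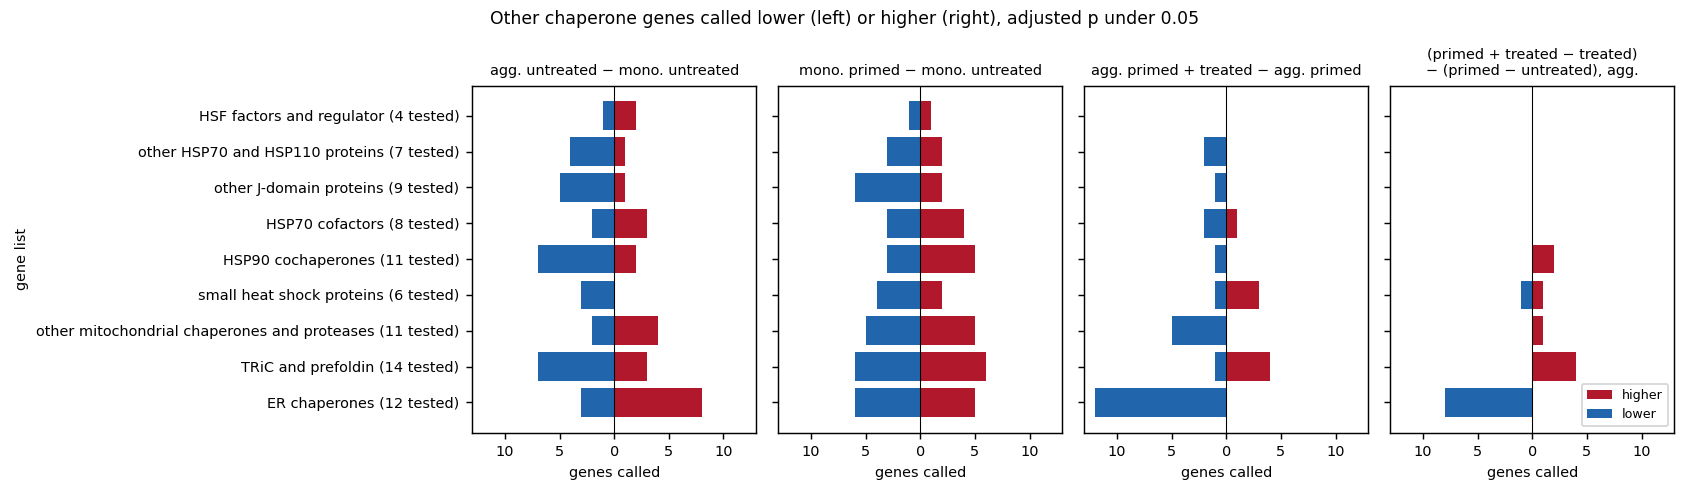
Number of genes called lower (bars to the left) and higher (bars to the right) by edgeR in each list of chaperones (rows), for 3 comparisons between groups and 1 difference between responses (panels). The endoplasmic reticulum list shows 12 of 12 lower in primed and treated against primed aggregates.

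Over the 21 libraries, log2 CPM was set beside the mean of the 10 centred chaperones for 8379 genes with a mean of at least 10 CPM. Pseudogenes were left out, as were symbols that begin with LOC, LINC or MIR or end in P or in P and digits. That rule on symbols also left out genes of the chaperone lists such as TCP1 and CACYBP. Among the genes kept, the most alike were SAMHD1 (Pearson r = 0.983), ATR (0.982), MYLK3 (0.973), SHMT1 (0.969) and DHX29 (0.969). These points share libraries and groups, so r is a description. SAMHD1, a phosphohydrolase of deoxynucleotides, averaged 13.9 CPM in primed and treated aggregates, 15.1 in treated, 9.28 in primed and 12.5 in untreated aggregates, 23.8 in primed monolayers, 35.3 in acutely exposed and 47.6 in untreated monolayers. ATR, a kinase of the DNA damage response, averaged 43.5 CPM in primed and treated aggregates, 43.4 in treated, 39.8 in primed and 42.9 in untreated aggregates, 58.0 in primed monolayers, 70.8 in acutely exposed and 80.8 in untreated monolayers. Both were lowest in primed aggregates and highest in untreated monolayers, as the chaperones' summed share was.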

How the data were processed

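Per the labels, TRIzol was used to isolate RNA from the 21 AU565 samples, and libraries were made by the TruSeq protocol from total RNA. The authors deposited 1 table of raw counts per gene, credited to featureCounts on hg38 by the submitters' processing notes, which also name limma. Versions, strand setting and read length are not given in the sources used here. Columns were matched to samples by title, and those of the primed aggregates through the wording of the treatment protocol.

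Counts were tested in edgeR 4.0.16 (R 4.3.3) with TMM scaling, filterByExpr by group, 7 group means in 1 fit of 21 libraries (14 residual degrees of freedom, biological coefficient of variation 5.98%), a robust quasi-likelihood fit and a two-sided test. P was Benjamini-Hochberg adjusted over 15969 genes in each of 8 comparisons and 2 differences between responses, and called under 0.05. The filter left out 584 genes. SE is the log2 change over the root of F. DESeq2 1.42.0 and limma 3.58.1 (voom) served as alternatives, with RLE scaling, no filter, only the groups compared, a replicate block, each library left out and 6 libraries with MYH7 left out. Replicate pairs differed beyond sampling noise in all 21 pairs (chi-square per degree of freedom 2.40 to 10.7).

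The members and lists were chosen with earlier results of these data known. All 10 members were named, and of the lists at most the 3 largest rises and 3 largest falls per comparison, plus HSF1, BAG3 and HSPB1. Genes of low counts among these (HSPB6, HSPB2, HSPA6, BAG2, DNAJA4) and some others are left out of the text. Alternatives for the list counts were chosen after seeing the data. Promoters and positions come from RefSeq tables of GRCh38.p14, exon lengths and shared stretches from GENCODE v29.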

Additional observations from a re-analysis of the deposited data

Results flagged for a closer look

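The change on priming differed between aggregates with and without the later exposure, tested as a difference between the responses in edgeR (n = 3 libraries in each of 4 groups, adjusted over all tested genes), for 4 of the 10 chaperone genes. The log2 difference was 0.51 ± 0.082 for HSPA8 (SE, edgeR adjusted p = 4.66e-05), 0.41 ± 0.086 for HSP90AA1 (edgeR adjusted p = 0.00123), 0.33 ± 0.081 for DNAJA1 (edgeR adjusted p = 0.0055) and 0.25 ± 0.070 for HSPD1 (edgeR adjusted p = 0.0136). HSPA8 was higher in each of the 3 primed and treated libraries than in each of the 3 treated ones, and lower in each of the 3 primed libraries than in each of the 3 untreated aggregates. The groups with the later exposure were also 24 h older and in the other set of libraries, so later exposure, age and set cannot be told apart.

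The change of HSPA8 on priming in aggregates was −0.24 ± 0.082 on the log2 scale relative to its change on acute exposure in monolayers (edgeR adjusted p = 0.0486), a call that 10 of the 12 fits without 1 library lost. Time since exposure and growth as aggregates cannot be told apart in it.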

How the results depend on the processing

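The 10 members gave 1420 alternative values over 10 comparisons. Of these, 1344 kept their direction or stayed uncalled as before, 52 lost their call, 24 gained one and none called in the main result changed sign (70 uncalled values did). With RLE scaling, DESeq2, voom or no filter, each count of members called stayed within 1.5 times the count reported. DESeq2 also called HSP90AB1 higher in primed against untreated aggregates and HSPD1 lower on acute exposure. Without the filter, HSP90AB1 lost its call in treated against untreated aggregates. With only the groups compared in the fit, the count became 2 for treated against untreated aggregates (1 higher, 1 lower), 3 for primed and treated against treated aggregates and 0 for priming in aggregates against acute exposure (edgeR, 1 at an unadjusted p under 0.05). Without the 6 libraries with MYH7, it became 0 for acute exposure (edgeR, 3 unadjusted), 2 for treated aggregates (both lower), 1 for primed and treated against untreated aggregates (HSPH1, lower) and 0 for priming in aggregates against acute exposure (edgeR, 2 unadjusted). Leaving out 1 library at a time gave 8 to 9 members called for untreated aggregates against untreated monolayers, 2 to 3 for acute exposure, 6 to 8 for primed monolayers, 1 to 6 for primed aggregates, 1 to 3 for treated aggregates, 3 to 5 for primed and treated against untreated aggregates, 0 to 1 against treated aggregates (edgeR, 1 to 3 unadjusted), 3 to 5 against primed aggregates, 4 to 6 for priming with against without the later exposure, and 0 to 2 for priming in aggregates against acute exposure (edgeR, 0 to 2 unadjusted). The cause of these shifts was not tested. With the replicate block, the count for priming in aggregates against acute exposure became 0 (edgeR, 1 unadjusted), and the other 9 counts did not change. Samples of the same replicate number were not more alike than others. Deviations of 63 same-numbered pairs correlated at −0.15 to 0.18, with 2 above 0.1, against −0.17 to 0.17 for 126 other pairs. These values cannot tell whether same-numbered samples were prepared together. HSPE1, HSPA1A and HSPA1B had the lowest counts of the members, and the largest SE, 0.098 to 0.22 on the log2 scale.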
